A study of Homo sapiens with 9 samples.

Results

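The comparison described here set HK-2 cells that received aristolochic acid together with an adenovirus carrying MYDGF against HK-2 cells that received the toxin alone. It used 6 of the 9 RNA sequencing libraries of the series, 3 in each group, and was described across the protein-coding genes, of which 13704 of the 19407 in the table had enough counts to be tested. HK-2 is a papillomavirus-transformed line of human proximal tubule cells. The cells were grown with 5% serum, kept without serum for 12 h and then exposed to 5 µg/ml of aristolochic acid for 48 h. The MYDGF group also received an adenovirus built on the GV314 vector with MYDGF as its insert, and its libraries carry the numbers 1, 3 and 4 in the labels. The libraries of aristolochic acid alone carry the numbers 1, 4 and 6. Untreated cells, numbered 1, 2 and 3, are given beside both groups. No control virus is named for the aristolochic acid group, so what MYDGF did and what infection did cannot be told apart. The cell line entry reads HK-2 throughout, although the treatment text of MYDGF libraries 3 and 4 and untreated libraries 2 and 3 reads HK-3 or HK-4. Nothing in the labels says whether a group's libraries are separate cultures, so p-values cover just the variation among these samples, and that may be technical.

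MYDGF, myeloid-derived growth factor, is a small protein of the secretory pathway that was first studied as a product of bone marrow cells acting on the injured heart. Aristolochic acids are plant nitro compounds that are taken up by proximal tubule cells, form adducts with DNA and cause a kidney disease with tubule loss and scarring. Stressed tubule cells are known to make chemokines under the control of NF-kB, and they depend on mitochondrial respiration for their energy. The series asks how MYDGF bears on mitochondrial homeostasis in tubule cells.

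Library totals ran from 10876572 to 14254786 counts. Within the 6 libraries, the first principal component of log2 CPM (a gene's count per 1e6 counts of its library, scaled with TMM factors) held 59.7% of the variance and separated the groups. The aristolochic acid libraries lay at -17.8, -63.4 and -49.7 on it and the MYDGF libraries at 30.2, 59.8 and 40.8. Aristolochic acid library 1 stood apart on the second component (12% of the variance), at 42.1, where the other 5 libraries ran from -25.4 to 2.85. The epithelial keratin genes KRT7, KRT8 and KRT18 stood between 368 and 1001 CPM in all 9 libraries. Some proximal tubule genes were at or near 0: LRP2, which encodes the endocytic receptor megalin, reached at most 0.309 CPM, and the phosphate transporter gene SLC34A1 at most 0.232 CPM. Others were expressed at a low level in all 9 libraries: GGT1 at 3.86 to 12.6 CPM, ANPEP at 2.40 to 13.6 CPM, CUBN at 1.665 to 6.417 CPM, AQP1 at 1.175 to 5.102 CPM and DPP4 at 1.47 to 3.41 CPM.

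MYDGF mRNA was several-fold higher in the cells given the virus. The gene (ENSG00000074842, chromosome 19) gave 663, 510 and 599 CPM after infection, against 105, 74.2 and 90.4 CPM with the toxin alone. Untreated cells held 125, 131 and 123 CPM. All 3 MYDGF libraries were above all 6 others, and the difference was 2.72 on the log2 scale, or 6.58-fold (SE 0.14, n = 3 per group, edgeR adjusted p = 2.74e-05). By the authors' FPKM, a value per gene length, MYDGF ranked 25th to 30th among protein-coding genes in the MYDGF libraries and 323rd to 561st in the aristolochic acid libraries. The counts do not tell mRNA of the virus from that of the cells' own gene, and TNFAIP8L1 lies across it on the opposite strand. In these bulk samples fewer cells of a type and less RNA per cell cannot be told apart.

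Of the protein-coding genes tested, 4339 (31.7%) passed an adjusted p of 0.05 in edgeR's quasi-likelihood test, the threshold used for every gene called higher or lower here. With MYDGF 2279 (16.6%) were higher and 2060 (15.0%) were lower, and the median log2 fold change was 0.02. These shares of all genes are the ones to set beside the counts of each gene list below. For 6366 genes (46.5%) no CPM value of one group reached those of the other. Most changes were small: 395 genes were at least 2-fold higher and 698 at least 2-fold lower. Without MYDGF library 3 the number of lower genes was 1305, and without the outlying aristolochic acid library 1 the numbers were 2709 higher and 2523 lower. The plot of change against untreated level gives the calls by a gene's activity in untreated cells. Among 11063 active genes, those with at least 5 CPM in untreated cells, 2045 (18.5%) rose and 1375 (12.4%) fell. At least 2-fold changes among active genes were 227 rises and 115 falls. Of the 578 tested genes under 0.5 CPM in untreated cells 5 rose and 332 fell, 4 and 324 of them at least 2-fold. A gene of the latter kind passes the filter on low counts largely through its level in treated cells, of either group. The filter thus favours genes that are high in 1 of both groups, so the calls of this class are described and not compared. Without MYDGF library 3 the active genes that fell numbered 869.

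**Figure D1:**
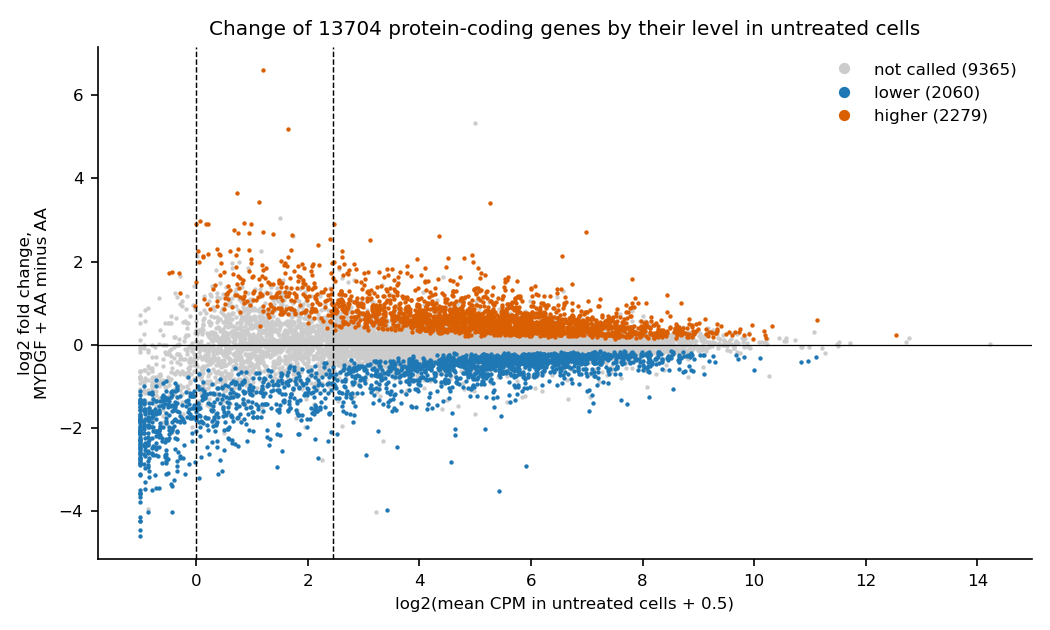
Log2 fold change between the MYDGF and aristolochic acid groups (y axis) against the log2 mean CPM in untreated cells (x axis, 0.5 CPM added) for each protein-coding gene tested, coloured by its call; dashed lines mark 0.5 and 5 CPM. Genes on the left, near silent in untreated cells, lie mostly below 0, and active genes lie on both sides of it.

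Genes controlled by the transcription factor NF-kB were lower in the cells with MYDGF. Of 20 tested NF-kB targets 15 fell and 0 rose, with a median log2 fold change of -0.61, and 1 rose without aristolochic acid library 6. Of 18 tested chemokines and cytokines 9 fell and 1 rose (median -0.61). The genes that fell include both inducers of inflammation and the brakes that NF-kB places on itself.

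The promoters of 3 of these genes show the short sequence that NF-kB is known to read. They were taken as the members of both lists that fell with the lowest adjusted p among those whose promoter holds GGNNNTTCC, a short form of the NF-kB site searched on both strands, and come from RefSeq (GRCh38.p14). Each line runs from 250 bases before the transcription start to 50 after it, with the matches in capitals.
TNFAIP2, chr14:103123211-103123510, + strand: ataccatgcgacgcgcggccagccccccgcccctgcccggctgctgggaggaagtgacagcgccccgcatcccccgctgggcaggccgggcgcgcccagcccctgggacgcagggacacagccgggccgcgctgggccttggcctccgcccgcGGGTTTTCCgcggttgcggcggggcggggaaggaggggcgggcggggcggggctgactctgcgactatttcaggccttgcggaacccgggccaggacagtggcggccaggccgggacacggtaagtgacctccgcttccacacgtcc
CXCL8, chr4:73740319-73740618, + strand: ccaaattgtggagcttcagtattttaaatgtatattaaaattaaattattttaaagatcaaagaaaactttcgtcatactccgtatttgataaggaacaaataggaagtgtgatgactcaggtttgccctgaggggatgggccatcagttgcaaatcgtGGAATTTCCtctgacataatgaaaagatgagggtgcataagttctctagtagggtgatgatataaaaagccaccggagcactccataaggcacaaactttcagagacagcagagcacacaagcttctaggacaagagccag
NFKBIA, chr14:35404700-35404999, - strand: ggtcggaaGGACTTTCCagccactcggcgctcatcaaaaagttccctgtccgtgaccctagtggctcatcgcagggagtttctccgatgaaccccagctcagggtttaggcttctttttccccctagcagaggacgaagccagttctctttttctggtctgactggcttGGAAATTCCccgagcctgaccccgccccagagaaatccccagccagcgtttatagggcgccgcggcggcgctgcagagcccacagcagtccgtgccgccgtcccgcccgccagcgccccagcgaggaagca
The match starts 97 bases before the start of TNFAIP2 and 91 bases before that of CXCL8, and NFKBIA holds a match at 242 and at 81 bases before its start. Of the 16 NF-kB targets that were tested and had a RefSeq promoter, 10 (62.5%) hold a match, 7 of them among the 12 that fell. Matches were thus not more common in the NF-kB targets that fell than in the others. Of the 12 tested chemokine and cytokine genes with a promoter there 10 hold one, among them the 8 that fell and 2 of the 4 that did not. The same letters occur in 23.1% of the promoters of 11055 protein-coding genes tested, in 26.2% of those of lower genes and in 22.6% of those of higher genes. A match describes the letters and is not evidence of binding.

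The neutrophil chemokine gene CXCL8 (ENSG00000169429) stood at 165, 259 and 166 CPM with the toxin alone and at 53.7, 41.1 and 48.3 CPM with MYDGF. The groups did not overlap, CXCL8 fell by 2.04 on the log2 scale (SE 0.18, adjusted p = 0.00038), and the MYDGF libraries stayed above the 23.6 to 25.2 CPM of untreated cells. CSF2, which encodes the growth factor GM-CSF, was at 27.7, 62.9 and 43.5 CPM with the toxin alone and at 8.27, 5.07 and 6.29 CPM with MYDGF. It fell by 2.77 (SE 0.32, adjusted p = 0.000938), and untreated cells held 0.475 to 1.09 CPM. CCL20, a chemokine for lymphocytes and dendritic cells, fell by 0.95 (SE 0.11, adjusted p = 0.000915), to 15.7 to 19.4 CPM, below the 25.5 to 26.0 CPM of untreated cells.

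The chemokine genes CXCL1, CXCL2 and CXCL3, neighbours of CXCL8 on chromosome 4 and chosen after their values were seen, fell by 1.11, 1.24 and 0.91. Levels of IL6, the gene of a cytokine of the acute response, differed by less than 0.01 on the log2 scale. The chemokine and scavenger receptor gene CXCL16 was the single member called higher (0.43), and that call was lost without any of 4 of the 6 libraries compared, with adjusted p from 0.0541 to 0.064.

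NFKBIA, TNFAIP2 and SOD2 were among the NF-kB targets that fell. NFKBIA encodes the inhibitor that holds NF-kB in the cytoplasm and is itself an NF-kB target. It stood at 153, 191 and 180 CPM with the toxin alone, at 98.4, 105 and 97.2 CPM with MYDGF and at 141 to 153 CPM in untreated cells. NFKBIA fell by 0.80 (SE 0.09, adjusted p = 0.000792), to below untreated cells. TNFAIP2, an actin-linked protein induced by tumour necrosis factor, stood at 331, 412 and 390 CPM and at 159, 140 and 149 CPM, and fell by 1.34 (SE 0.11, adjusted p = 0.000316). SOD2, the manganese superoxide dismutase of mitochondria and also an NF-kB target, fell by 0.71 (SE 0.08, adjusted p = 0.000939). The deubiquitinase gene TNFAIP3 (A20) and CYLD, both brakes of the pathway, fell by 0.95 and 1.10, the NF-kB subunit genes NFKB1 and RELB by 0.62 and 0.49, and the adhesion molecule gene ICAM1 by 0.59. These 5 were chosen after their values were seen.

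**Figure D2:**
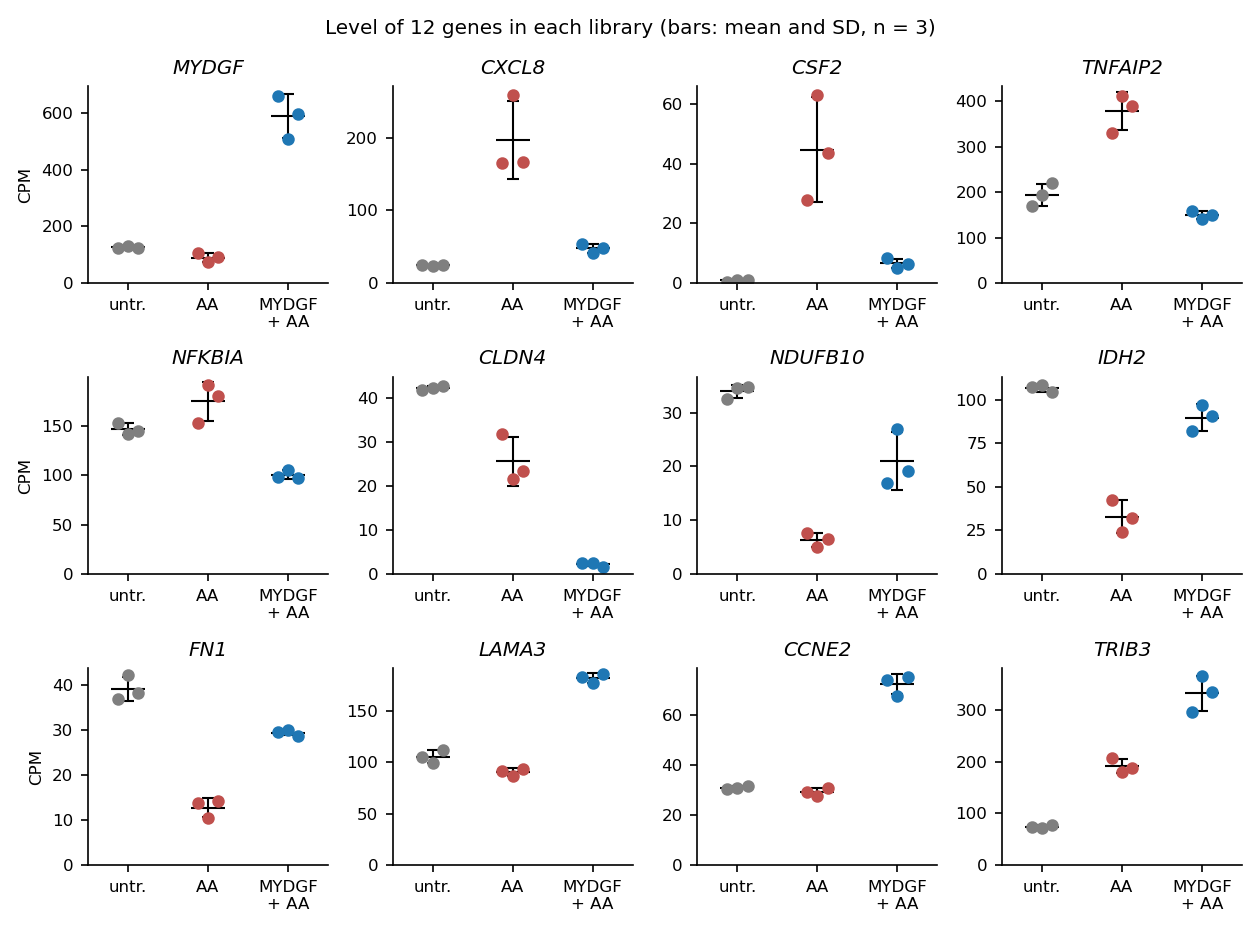
Level in CPM (y axis, from 0) of 12 genes in each library of the 3 groups; points are libraries and bars the mean and SD of 3. MYDGF and LAMA3 are above both other groups in the MYDGF libraries, CLDN4 and NFKBIA below both, and CXCL8 and IDH2 lie between untreated and aristolochic acid cells.

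Interferon-stimulated genes, which cells turn on against viruses, were also lower in part. Of 36 tested 12 fell and 1 rose (median -0.29). MX1, which encodes an antiviral GTPase, stood at 65.7, 104 and 69.2 CPM with the toxin alone and at 26.4, 31.6 and 30.3 CPM with MYDGF, where untreated cells held 187 to 252 CPM. It fell by 1.44 (SE 0.19, adjusted p = 0.00147), and aristolochic acid and MYDGF libraries were all below the untreated ones. The transcription factor gene IRF9, part of the complex that conveys interferon signals, fell by 1.02 (SE 0.16, adjusted p = 0.00284), and IRF1 by 0.97 (SE 0.11, adjusted p = 0.000938). IRF1 was at 55.5, 55.4 and 51.0 CPM with MYDGF, near the 49.7 to 54.0 CPM of untreated cells. HERC5 was the member called higher (0.38, adjusted p = 0.043), a call lost in 10 of the 15 settings tried outside the replicate block. Without aristolochic acid library 1, 4 members rose. The interferon-induced genes IFIT1 and ISG15, chosen after their values were seen, were 0.81 and 0.19 higher without passing the test.

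Immediate early genes, which cells transcribe within minutes of a stimulus, were split. Of 19 tested 3 rose and 4 fell (median -0.12). The transcription factor gene EGR1 fell by 1.31 (SE 0.29, adjusted p = 0.0094), from 35.95, 92.1 and 53.3 CPM to 28.3, 22.7 and 22.1 CPM, and its log2 change was -0.87 without aristolochic acid library 4. FOSB fell by 1.27 and JUNB by 0.55, while the AP-1 subunit gene JUND rose by 0.56 and SRF, whose product drives many of these genes, by 0.48 (adjusted p from 0.00127 to 0.00886). Genes of MAP kinase feedback showed 2 rises and 3 falls among 16 (median -0.14). The MAP kinase phosphatase gene DUSP4 rose by 0.88 (SE 0.16) and DUSP1 fell by 0.26 (SE 0.06, adjusted p = 0.00444 and 0.0103). Without aristolochic acid library 1 the list had 5 falls, and without any 1 of the other 5 libraries compared it had 1 rise.

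Called genes of the cell's surroundings mostly rose, and those of cell contacts moved both ways. Of 27 tested genes of matrix and dedifferentiation 10 rose and 1 fell (median 0.30). LAMA3, the alpha chain of laminin-332 in the epithelial basement membrane, stood at 91.3, 86.4 and 93.5 CPM with the toxin alone and at 183, 177 and 186 CPM with MYDGF. It rose by 1.01 (SE 0.06, adjusted p = 0.000102), above the 99.7 to 112 CPM of untreated cells. LAMB3, the beta chain of the same laminin, went the other way, from 1123, 1468 and 1290 CPM to 892, 773 and 883 CPM, and fell by 0.61 (SE 0.10, adjusted p = 0.00271). Without aristolochic acid library 1, 2 members fell.

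Fibronectin (FN1), a matrix protein of wound repair, rose by 1.20 (SE 0.12, adjusted p = 0.000684), from 13.7, 10.4 and 14.3 CPM to 29.5, 29.9 and 28.8 CPM, still under the 36.9 to 42.2 CPM of untreated cells. Tenascin C (TNC), a matrix protein of injured tissue, rose by 0.91 (SE 0.08, adjusted p = 0.000414), to 98.4 to 107 CPM against 49.3 to 50.4 CPM in untreated cells. The mesenchymal genes that follow were chosen after their values were seen: the transcription factor genes SNAI2 and ZEB1 stood 0.52 and 0.34 lower and vimentin (VIM) 0.41 higher, none past the test. The smooth muscle actin gene ACTA2 rose by 1.22 (SE 0.28, adjusted p = 0.011) at a level of 3.52 to 5.00 CPM, and FAS and STAMBPL1 overlap it on the opposite strand.

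The tight junction gene CLDN4 had the second largest fall among all active genes. It stood at 31.9, 21.6 and 23.4 CPM with the toxin alone and at 2.53, 2.42 and 1.70 CPM with MYDGF, where untreated cells held 41.8 to 42.7 CPM. CLDN4 fell by 3.53 (SE 0.19, adjusted p = 5.26e-05), and all 3 MYDGF libraries were below the other 6. Among 23 keratin and junction genes 8 rose and 4 fell (median 0.05). E-cadherin (CDH1), the adhesion protein of epithelial cells, rose by 0.64 (SE 0.10, adjusted p = 0.00234), from 52.8, 40.5 and 47.0 CPM to 70.5, 76.2 and 71.6 CPM, against 96.9 to 105 CPM in untreated cells. The scaffold gene TJP1 (ZO-1) fell by 0.71 (SE 0.06, adjusted p = 0.00038) and the keratin gene KRT8 by 0.38 (SE 0.06, adjusted p = 0.0024). Without MYDGF library 1 the number of rises was 5, and DESeq2 called 7 falls.

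Nuclear genes of oxidative phosphorylation, which encode most subunits of the respiratory chain, were higher on balance. Of 74 tested 22 rose and 3 fell (median 0.20). Over all protein-coding genes tested 16.6% rose and 15.0% fell, and among active genes with a genomic span of up to 11.8 kb 29.5% rose and 7.91% fell. The summed level of the tested members was 6215 to 6738 CPM with the toxin alone, 6769 to 7384 CPM with MYDGF and 7295 to 7406 CPM in untreated cells. Without MYDGF library 3 or 4, 13 members rose. NDUFB10, a subunit of complex I, stood at 7.53, 4.95 and 6.53 CPM with the toxin alone and at 16.9, 27.0 and 19.1 CPM with MYDGF. It rose by 1.73 (SE 0.20, adjusted p = 0.000949), to under the 32.6 to 34.7 CPM of untreated cells. UQCRC1 and UQCRQ of complex III rose by 0.56 and 0.72 (SE 0.08 and 0.09, adjusted p = 0.00169 and 0.00135). The members that fell were NDUFA8 (0.44) and NDUFA9 (0.37) of complex I and SDHD (0.36), the membrane anchor of complex II (adjusted p from 0.00315 to 0.00798).

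The 13 mRNAs encoded by mitochondrial DNA did not share this direction: 2 rose (1 without aristolochic acid library 1 or 6 or MYDGF library 3 or 4), 1 fell, and the median of 0.02 changed sign with other scalings. Counts of mitochondrial genes took 4.37 to 4.76% of a library with aristolochic acid, 4.44 to 4.71% with MYDGF and 6.49 to 6.84% in untreated cells. MT-CO2, a subunit of cytochrome c oxidase, rose by 0.24 (SE 0.05, adjusted p = 0.0117), from 3306, 3570 and 3787 CPM to 4154, 4370 and 4061 CPM. MT-ATP8, which overlaps MT-ATP6 on the same strand, fell by 0.32 (SE 0.06, adjusted p = 0.005). Genes of mitochondrial biogenesis and dynamics showed 2 rises and 4 falls among 27 (median -0.02), among them POLRMT, the mitochondrial RNA polymerase (0.60, SE 0.07, adjusted p = 0.00101), and POLG2, the accessory subunit of its DNA polymerase (-1.35, SE 0.21, adjusted p = 0.00257). Without any of aristolochic acid libraries 4 and 6 and MYDGF libraries 3 and 4 the falls were 2, and without aristolochic acid library 6 or MYDGF library 4 there was 1 rise. Of 17 mitophagy genes, which serve the removal of mitochondria, 2 rose and 1 fell (median -0.10): BNIP3 rose by 0.92 (SE 0.10, adjusted p = 0.000909), PINK1 rose by 0.52 (SE 0.12, adjusted p = 0.0105) and OPTN, an autophagy receptor gene, fell by 0.29 (adjusted p = 0.0114). The mitophagy falls were 3 with other scalings or without aristolochic acid library 1, and 2 without aristolochic acid library 4 or 6 or MYDGF library 3.

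The citrate cycle list had 6 rises and 1 fall among 28 (median 0.12), where 16.6% of all genes tested rose and 15.0% fell. It had 2 falls with other scalings or without aristolochic acid library 1 or MYDGF library 4. The isocitrate dehydrogenases led the rises. The mitochondrial enzyme gene IDH2 stood at 42.6, 24.1 and 31.9 CPM with the toxin alone and at 81.7, 96.7 and 90.5 CPM with MYDGF. It rose by 1.45 (SE 0.17, adjusted p = 0.00101), to just under the 104 to 108 CPM of untreated cells. The cytosolic IDH1 rose by 0.94 (SE 0.17, adjusted p = 0.00493), from 91.5, 55.6 and 64.6 CPM to 135, 149 and 124 CPM. Fatty acid oxidation had 7 rises and 3 falls among 28 (median 0.04, from -0.04 to 0.09 when single libraries were left out), 4 rises without MYDGF library 3 or 4, and 5 falls with RLE size factors. The very-long-chain dehydrogenase gene ACADVL rose by 0.68 (SE 0.09, adjusted p = 0.0015) and the short-chain enzyme gene ACADS fell by 0.82 (SE 0.17, adjusted p = 0.00736).

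Part of the glycolytic enzymes and of the genes against oxidative stress rose. Of 24 glycolysis genes 9 rose, 2 fell and 13 did not pass the test (median 0.22), with 1 fall without aristolochic acid library 4 or MYDGF library 3 or 4. GAPDH stood at 1542, 1339 and 1597 CPM with the toxin alone and at 2046, 2602 and 2132 CPM with MYDGF, near the 2074 to 2427 CPM of untreated cells, a rise of 0.60 (SE 0.10, adjusted p = 0.00381). Aldolase A (ALDOA) rose by 0.48 (SE 0.05, adjusted p = 0.000879) and the phosphofructokinase gene PFKP by 0.43 (SE 0.04, adjusted p = 0.000557), the latter to 606 to 634 CPM, above the 393 to 404 CPM of untreated cells. PFKFB4, which makes a regulator of phosphofructokinase, fell by 0.61 (SE 0.14, adjusted p = 0.0115).

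Of 29 genes of the NRF2 and glutathione system, which detoxify oxidants, 14 rose, 2 fell and 13 did not pass the test (median 0.22), and 9 rose without aristolochic acid library 6 or without MYDGF library 3 or 4. Heme oxygenase 1 (HMOX1) stood at 32.9, 32.3 and 35.1 CPM with the toxin alone, 60.4, 62.1 and 52.8 CPM with MYDGF and 36.1 to 42.1 CPM in untreated cells, a rise of 0.81 (SE 0.09, adjusted p = 0.000915). The peroxiredoxin gene PRDX2 rose by 0.76 (SE 0.13, adjusted p = 0.00324). The ferritin light chain gene FTL rose by 0.48 (SE 0.11, adjusted p = 0.0118), from 815, 623 and 646 CPM to 897, 1070 and 945 CPM. The members that fell were SOD2, given above, and thioredoxin reductase TXNRD1 (0.39, adjusted p = 0.0366). The call of TXNRD1 was lost without any of 8 of the 9 libraries (adjusted p up to 0.1), and its log2 change was -0.23 without aristolochic acid library 4. The regulator gene NFE2L2, which encodes NRF2 and was chosen after its values were seen, stood 0.38 lower without passing the test.

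Cholesterol synthesis genes had 6 rises and 1 fall among 28 (median 0.24), where 16.6% of all genes tested rose and 15.0% fell. The number of rises was 13 without aristolochic acid library 1 and 3 without aristolochic acid library 4 or 6 or MYDGF library 1. The desaturase gene SCD rose by 0.45 (SE 0.07, adjusted p = 0.00271).

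The ATF4 stress response, which cells raise when amino acids are short or proteins misfold, was mixed. Of 32 genes 9 rose and 4 fell (median 0.14), and 2 fell without aristolochic acid library 6 or MYDGF library 1 or 3. The pseudokinase gene TRIB3 stood at 207, 180 and 188 CPM with the toxin alone, 297, 366 and 335 CPM with MYDGF and 72.5 to 77.8 CPM in untreated cells. It rose by 0.79 (SE 0.09, adjusted p = 0.000797), so the MYDGF libraries were farther from untreated cells than the aristolochic acid ones. The amino acid transporter gene SLC1A4 rose by 0.93 (SE 0.13, adjusted p = 0.00159), and STC2, the gene of a secreted glycoprotein, by 0.34 (SE 0.04, adjusted p = 0.0013). MTHFD2, the mitochondrial folate enzyme, fell by 0.26 (SE 0.05, adjusted p = 0.00442), and the log2 change of ATF4 itself was 0.04 (adjusted p = 0.703).

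Chaperones of the endoplasmic reticulum, the compartment that MYDGF passes through, showed 5 rises and 1 fall among 28 (median 0.14). Of all genes tested 16.6% rose and 15.0% fell. The rises in this chaperone list were 11 without aristolochic acid library 1 and 2 or 3 without each of the other 5 libraries compared. MANF, a secreted chaperone-like factor, rose by 0.36 (SE 0.07, adjusted p = 0.00592), and the stress sensor gene ATF6 fell by 0.66 (SE 0.12, adjusted p = 0.00502). Of the 3 KDEL receptors, which return chaperones to the endoplasmic reticulum, 2 were called higher. KDELR1 rose by 0.25 (SE 0.08, adjusted p = 0.0439), a call lost in 12 of the 15 alternatives without a replicate block (adjusted p from 0.0574 to 0.135). These were RLE scaling, TMM from active genes, DESeq2, no filter on low counts, the fit of just the 6 libraries, and leaving out any untreated library, aristolochic acid library 4 or 6 or MYDGF library 1 or 3. KDELR3 was at 3.32, 3.17 and 3.40 CPM with the toxin alone, 4.59, 8.59 and 4.80 CPM with MYDGF and 47.6 to 56.0 CPM in untreated cells. Its rise of 0.86 (adjusted p = 0.0245) was 0.52 without MYDGF library 3, and its call was lost without aristolochic acid library 4 or 6 (adjusted p = 0.0742 and 0.062) and with just the 6 libraries (0.0604).

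DNA replication genes were higher in many cases and lower in few. Of 43 tested 20 rose and 2 fell (median 0.23), with a summed level of 5145 to 5538 CPM with the toxin alone, 5926 to 6275 CPM with MYDGF and 3704 to 3785 CPM in untreated cells. Cyclin E2 (CCNE2), which brings cells into S phase, stood at 29.2, 27.5 and 30.9 CPM with the toxin alone and at 74.1, 67.8 and 75.4 CPM with MYDGF, where untreated cells held 30.3 to 31.9 CPM. It rose by 1.31 (SE 0.08, adjusted p = 6.57e-05). The clamp loader genes RFC2 and RFC4 rose by 0.83 and 0.65 (SE 0.09 and 0.08, adjusted p = 0.000783 and 0.00103). The replicative helicase gene MCM6 fell by 0.41 (SE 0.06, adjusted p = 0.00184) and the primase gene PRIM2 by 0.43 (SE 0.08, adjusted p = 0.00455), while the other helicase genes tested, MCM2 (-0.11), MCM3 (-0.13), MCM4 (0.14), MCM5 (-0.15) and MCM7 (0.03), did not pass the test.

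Mitosis genes had 8 rises and 2 falls among 35 (median 0.05), where 16.6% of all genes tested rose and 15.0% fell. KIF20A, a kinesin of cell division, rose by 0.60 (SE 0.08, adjusted p = 0.0014), from 71.8, 60.7 and 61.8 CPM to 94.3, 99.9 and 101 CPM, and ECT2, which directs the cleavage furrow, fell by 0.31 (SE 0.06, adjusted p = 0.00502). With other scalings 4 mitosis genes fell, and without MYDGF library 4 it was 1. DNA repair genes, which bear on the adducts of the toxin, had 10 rises and 4 falls among 34, with a median of 0.01 that changed sign with other scalings. The Fanconi anaemia genes FANCA and FANCI rose by 0.55 and 0.44 (SE 0.07 and 0.06, adjusted p = 0.00119 and 0.00129). ERCC6, which couples excision repair to transcription, fell by 0.79 (SE 0.13, adjusted p = 0.00329), from 19.4, 21.6 and 19.96 CPM to 13.6, 11.7 and 9.96 CPM. The falls were 2 without aristolochic acid library 6 and 1 without MYDGF library 4.

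Targets of the tumour suppressor p53, the factor that responds to DNA damage, moved both ways. Of 28 tested 8 rose and 4 fell (median 0.27), with 5 rises without aristolochic acid library 4 or MYDGF library 4 and 2 falls without aristolochic acid library 4 or MYDGF library 1. BTG2, a brake on proliferation, rose by 0.94 (SE 0.11, adjusted p = 0.000909), from 27.2, 21.8 and 21.2 CPM to 45.9, 44.5 and 44.0 CPM. GDF15, a secreted stress factor also counted in the ATF4 list, rose by 1.39 (SE 0.26, adjusted p = 0.00478), and MDM2, which degrades p53, by 0.34 (SE 0.06, adjusted p = 0.00478). The death receptor gene TNFRSF10B fell by 0.56 (SE 0.06, adjusted p = 0.000909), from 497, 540 and 520 CPM to 348, 353 and 356 CPM, and the RNA-binding protein gene ZMAT3 by 0.77 (SE 0.08, adjusted p = 0.000684). Among 26 apoptosis regulators 4 rose and 5 fell (median -0.01), where 16.6% of all genes tested rose and 15.0% fell. The proapoptotic genes BMF and BAK1 rose by 1.29 and 0.45 (SE 0.18 and 0.08), and APAF1, the core of the apoptosome, fell by 0.56 (SE 0.12, adjusted p = 0.00968). Without MYDGF library 4 there were 2 rises and 3 falls, and without aristolochic acid library 4 there were 3 falls.

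Genes of 2 growth factor pathways were called at shares near that of all genes and in both directions. Receptors and ligands of the EGF family had 2 rises and 2 falls among 11 (median 0.09). The receptor gene ERBB3 rose by 0.67 (SE 0.09, adjusted p = 0.00157), EGF fell by 1.06 (SE 0.21, adjusted p = 0.00683) to 3.60 to 4.06 CPM, and the list had 1 fall without aristolochic acid library 4 or 6 or MYDGF library 3 or 4. TGF-beta signalling, a driver of scarring in the kidney, had 2 rises and 4 falls among 20, and its median of 0.01 changed sign with other scalings. The ligand gene TGFB1 stood at 50.6, 36.7 and 45.8 CPM with the toxin alone, 61.9, 75.3 and 69.9 CPM with MYDGF and 88.3 to 88.8 CPM in untreated cells, a rise of 0.64 (SE 0.12, adjusted p = 0.00484). The signal transducer gene SMAD3 fell by 0.61 (SE 0.06, adjusted p = 0.000446), from 387, 427 and 432 CPM to 282, 264 and 273 CPM, and LTBP2, a microfibril protein, by 0.75 (SE 0.10, adjusted p = 0.00159). Without aristolochic acid library 1 there were 7 falls.

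**Figure D3:**
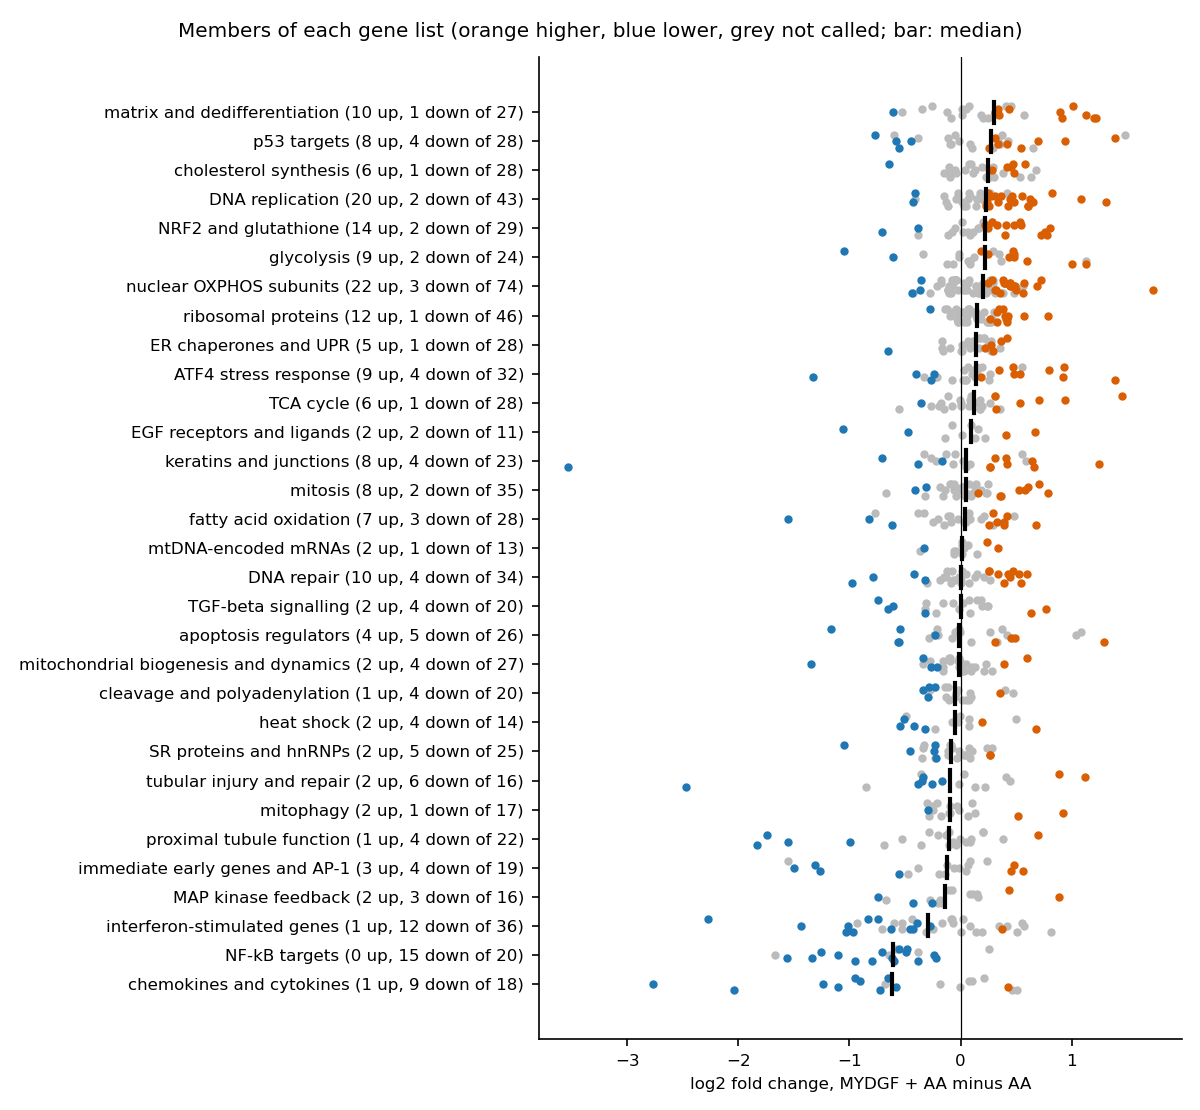
Log2 fold change between the MYDGF and aristolochic acid groups (x axis) of every tested member of the gene lists with at least 10 tested members (y axis, ordered by median). NF-kB targets and chemokines lie lowest, with medians of -0.61, and matrix genes highest, with 0.30.

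Of 46 ribosomal protein genes 12 rose and 1 fell (median 0.15), with 7 rises without aristolochic acid library 6 and 0 falls without MYDGF library 1 or 3, and reads of their near-identical copies may be split by the counting. RPLP2 rose by 0.57 (SE 0.07, adjusted p = 0.0014). Heat shock genes had 2 rises and 4 falls among 14 (median -0.05), and 1 rise without any 1 of 6 libraries or with other scalings. The chaperone gene HSPA4 fell by 0.32 and HSPB1 rose by 0.68 (SE 0.06 and 0.15, adjusted p = 0.00514 and 0.01). SR proteins and hnRNPs, which direct splicing, had 2 rises and 5 falls among 25 (median -0.09), led by the splicing kinase gene CLK4, which fell by 1.05 (SE 0.14, adjusted p = 0.0014). The falls were 2 without MYDGF library 3, and 3 without untreated library 1, aristolochic acid library 4 or 6 or MYDGF library 1 or 4. Without MYDGF library 4, 1 gene rose. Genes of cleavage and polyadenylation, which end transcripts, had 1 rise and 4 falls among 20 (median -0.05), 1 fall without any single MYDGF library, 2 without aristolochic acid library 4 or 6, and 2 rises without aristolochic acid library 1. FIP1L1 fell by 0.33 (SE 0.08, adjusted p = 0.0109).

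Called tubule markers went both ways, with more falls than rises. Of 22 tested proximal tubule genes 1 rose and 4 fell (median -0.10, 2 falls without aristolochic acid library 4). The transporter gene SLC47A1 rose by 0.70 (SE 0.12, adjusted p = 0.00348) and the aminopeptidase gene ANPEP fell by 1.55 (SE 0.36, adjusted p = 0.0121), from 4.94, 13.6 and 9.57 CPM to 4.21, 2.97 and 2.40 CPM. Of 16 genes of tubular injury and repair 2 rose and 6 fell (median -0.09, 3 falls without MYDGF library 4). Over all genes tested 16.6% rose and 15.0% fell. PROM1, at most 0.0839 CPM in untreated cells, fell by 2.47 (SE 0.39, adjusted p = 0.00271). It went from 3.56, 8.89 and 5.98 CPM to 1.38, 1.01 and 0.919 CPM. ANXA2 fell by 0.35 (SE 0.06, adjusted p = 0.00346). The transcription factor gene SOX4 rose by 1.12 (SE 0.11, adjusted p = 0.000529), from 23.2, 17.8 and 17.8 CPM to 42.3 to 42.8 CPM, the level of untreated cells (40.5 to 43.2 CPM). HAVCR1, which encodes the injury marker KIM-1 and was chosen after its values were seen, stood 0.85 lower without passing the test.

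The tested markers of endothelial cells and leukocytes summed to under 40 CPM in each library, and those of 2 other kinds of cell to more. Of 15 endothelial genes 7 were tested, and these summed to 30.5 to 39.6 CPM with the toxin alone, 28.0 to 32.9 CPM with MYDGF and 29.03 to 32.8 CPM in untreated cells. Of the 7, 1 rose and 5 fell (median -1.43, 3 falls without aristolochic acid library 4 or 6 or MYDGF library 3 or 4). PECAM1 was at 5.02, 11.3 and 7.45 CPM with the toxin alone and at 2.83, 1.48 and 2.05 CPM with MYDGF. Of 18 leukocyte genes the 8 tested summed to 38.3 to 39.8, 34.4 to 37.2 and 29.03 to 37.2 CPM in the same order. They had 2 rises and 3 falls (median -0.57), and 1 rise without aristolochic acid library 4 or 6 or MYDGF library 3 or 4. The common leukocyte gene PTPRC had too few counts to be tested. CD79A, a B cell gene that starts 4.35 kb past the active gene RPS19 on the same strand, fell by 1.86 (SE 0.29, adjusted p = 0.00251). Fibroblast and mesangial markers had 1 rise and 2 falls among 7 (median 0.10), with 0 falls without aristolochic acid library 6 or MYDGF library 1 or 3, 1 without any other library but aristolochic acid library 1, and 2 rises without that one. The summed level of those tested was 105 to 113 CPM with the toxin alone, 120 to 133 CPM with MYDGF and 65.5 to 81.5 CPM in untreated cells. Distal nephron and podocyte markers had 1 rise and 3 falls among 8 (median -0.20), with 1 fall without aristolochic acid library 6 or MYDGF library 3 or 4 and 2 rises without untreated library 1 or 3, aristolochic acid library 6 or MYDGF library 4. Those tested summed to 301 to 345, 280 to 285 and 363 to 381 CPM in the same order. Most of this was SYNPO, an actin-linked protein of podocytes, at 224 to 287 CPM in the 9 libraries, while the distal nephron genes UMOD and AQP2 were at or near 0. The part of other cells in these values was not tested.

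The largest rises among active genes included several that were under 2 CPM with aristolochic acid alone. PLPPR3, a lipid phosphatase-related gene of neurons, stood at 0.324, 0.695 and 0.552 CPM with the toxin alone, at 3.37, 8.67 and 5.02 CPM with MYDGF and at 33.2 to 42.2 CPM in untreated cells, a rise of 3.41 (SE 0.42, adjusted p = 0.00119). SPAG4 (2.91), SLC29A4 (2.61), UNC5A (2.53), GALNT16 (2.25), NEURL1B (2.15), ZNF791 (2.09) and NBEAL2 (2.13) were among the 10 largest rises as well. NBEAL2, whose product serves platelet granules, stood at 23.6, 12.98 and 15.9 CPM with the toxin alone and at 68.2, 87.3 and 74.4 CPM with MYDGF, against 91.1 to 94.7 CPM in untreated cells. TMEM74B rose by 2.10 (adjusted p = 0.022), and its call was lost without aristolochic acid library 4 or MYDGF library 1 or 3 (adjusted p = 0.0586, 0.0538 and 0.0609).

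The largest falls among active genes, as log2 changes, were those of KRBA2 (-3.99), CLDN4 (-3.53), MED29 (-2.92), RBM12 (-2.83), CILP2 (-2.66), NUDT16 (-2.48), TNS2 (-2.17), BAIAP3 (-2.15), EFEMP2 (-2.08) and CXCL8 (-2.04). KRBA2, a gene with a KRAB domain, stood at 50.7, 99.4 and 76.5 CPM with the toxin alone, 3.22, 5.31 and 5.72 CPM with MYDGF and 8.56 to 11.1 CPM in untreated cells (SE 0.29, adjusted p = 0.000157). It overlaps an unnamed expressed gene on the same strand. MED29 and RBM12 differ from the others in how their libraries lie. MED29, a Mediator subunit, was at 85.7, 85.8 and 84.2 CPM with the toxin alone and at 9.72, 9.76 and 14.3 CPM with MYDGF, but at 87.4, 9.31 and 81.6 CPM in untreated libraries 1, 2 and 3. RBM12, which shares its strand with the overlapping CPNE1, was at 30.4, 238 and 182 CPM with the toxin alone and at 19.0 to 24.2 CPM in the other 6 libraries. TNS2, EFEMP2, BAIAP3, UNC5A, NBEAL2, NEURL1B, SLC29A4 and ZNF791 overlap expressed genes on the opposite strand, and the counting is not stated to use strand.

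In mean CPM, the largest rises among the genes called were those of GAPDH, MT-CO2, MYDGF, FLNA and FTL. Filamin A (FLNA), which cross-links actin, went from 1304, 1193 and 1296 CPM to 1656, 1492 and 1615 CPM (0.33, SE 0.05, adjusted p = 0.00302). The largest falls were those of AHNAK, TXNRD1, LAMB3, TGM2 and EEF1A1. The scaffold gene AHNAK went from 1492, 1755 and 1927 CPM to 1194, 1026 and 1146 CPM (-0.62, SE 0.09, adjusted p = 0.002), near the 1006 to 1034 CPM of untreated cells. Transglutaminase 2 (TGM2), which cross-links matrix proteins, went from 1822, 1590 and 1765 CPM to 1308, 1321 and 1242 CPM (-0.42, SE 0.06, adjusted p = 0.00155), below the 1784 to 1878 CPM of untreated cells.

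Genes that untreated cells barely express (near silent, a mean under 0.5 CPM) were lower with MYDGF as a class. Over all 6058 such genes in the table, tested or not, their CPM summed to 361 to 373 in untreated libraries, to 2109, 4140 and 3314 in aristolochic acid libraries 1, 4 and 6, and to 1602, 1417 and 1362 in MYDGF libraries 1, 3 and 4. All MYDGF libraries were below all aristolochic acid libraries and above all untreated ones. With the toxin alone most of the sum came from 1487 genes that follow an active gene within 100 kb on its own strand: 1522, 3129 and 2479 CPM with the toxin alone, 1016, 618 and 826 CPM with MYDGF and 140 to 142 CPM in untreated cells. For the 2225 genes with no active gene near, the sums were 142, 264 and 213 CPM, 134, 116 and 121 CPM, and 63.0 to 69.5 CPM. For the 1738 genes near an active gene in another arrangement they were 178, 310 and 229 CPM with aristolochic acid and 242, 214 and 230 CPM with MYDGF, so these overlapped. The 583 genes that overlap an active gene stood at 207, 466 and 183 CPM in MYDGF libraries 1, 3 and 4, against 265 to 431 CPM in aristolochic acid libraries. In MYDGF library 3 the read-through gene BLOC1S5-TXNDC5, which overlaps the active gene TXNDC5, stood at 318 CPM, and at 0 in all other libraries. Its part in the sums of library 3 was not tested.

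Of the near-silent genes 578 passed the filter on low counts and 332 of them fell. Such a gene passes this filter largely through its level in treated cells. The calls of this class are therefore descriptions, and its rises and falls are not compared. Without any of aristolochic acid libraries 4 and 6 and MYDGF libraries 3 and 4 the falls were 190 to 218. GARIN4 had no count in any untreated library and stood at 8.42, 31.5 and 19.9 CPM with the toxin alone and at 2.07, 1.09 and 1.84 CPM with MYDGF, and fell by 3.57 (SE 0.52, adjusted p = 0.00352). It starts 3.7 kb past the end of ATF3, an active stress gene on the same strand. GIMAP8, 52 kb past ZNF775, fell by 3.79 and OR5AU1, an olfactory receptor gene 50.1 kb past HNRNPC, fell by 3.66 (adjusted p = 0.00336 and 0.0149). The call of OR5AU1 was lost without MYDGF library 4 (adjusted p = 0.0503), and its log2 change was -5.69 without MYDGF library 1. OPALIN (-4.26) and CHRNA4 (-4.03), which have no such neighbour, were lower as well. GIMAP8, OPALIN and CHRNA4 had under 10 counts in every MYDGF library and passed the filter through the aristolochic acid group. Their adjusted p are therefore not given. No near-silent gene that rose reached a mean of 5 CPM, and the 5 rises were 1 to 4 without any 1 of 6 libraries.

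**Figure D4:**
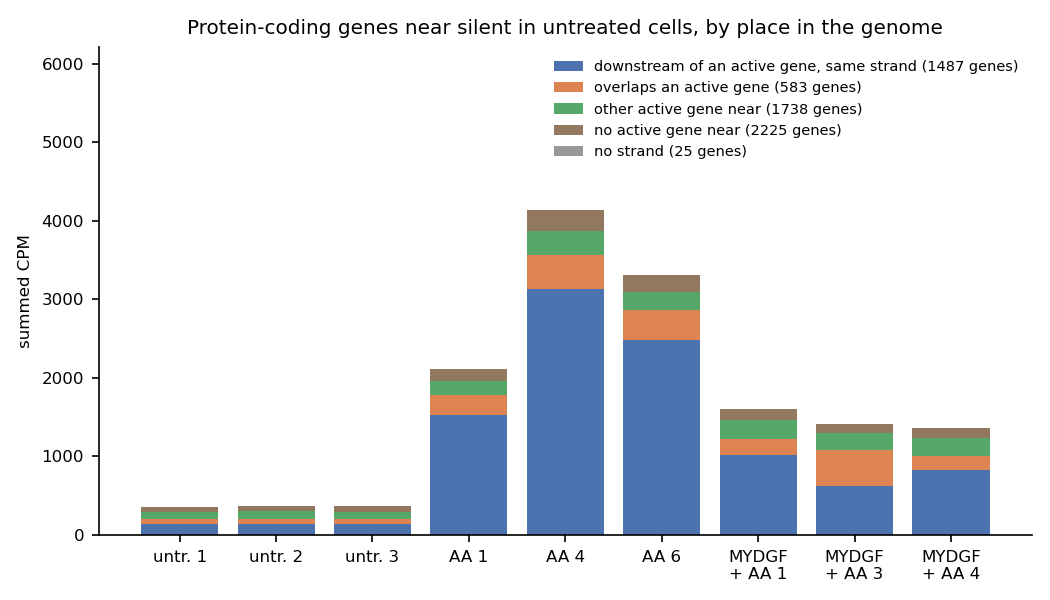
Summed CPM (y axis, from 0) of all near-silent protein-coding genes, in each of the 9 libraries (x axis), split by place relative to active genes. MYDGF libraries, at 1362 to 1602 CPM, lie between the untreated and the aristolochic acid libraries.

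The median change was highest in the shortest active genes. Active genes were divided by genomic span into 5 classes of 2212 or 2213. In the shortest class, up to 11.8 kb, 653 (29.5%) rose and 175 (7.91%) fell and the others did not pass the test, with a median of 0.17 (0.13 with other scalings). In the next class, up to 25.9 kb, the median was 0.06, with 423 rises and 245 falls. In the 3 longer classes it ran from -0.02 to 0.00, with 304 to 348 rises and 308 to 331 falls each. By library, the median difference of the shortest genes from untreated cells was -0.23, -0.32 and -0.31 in aristolochic acid libraries 1, 4 and 6 and -0.20, -0.07 and -0.15 in MYDGF libraries 1, 3 and 4, so the groups did not overlap. By the gene length in the deposited table the shortest class again had the largest median, 0.12. Many genes of oxidative phosphorylation and many ribosomal protein genes are short, and the part of gene length in the changes of these lists was not tested.

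**Figure D5:**
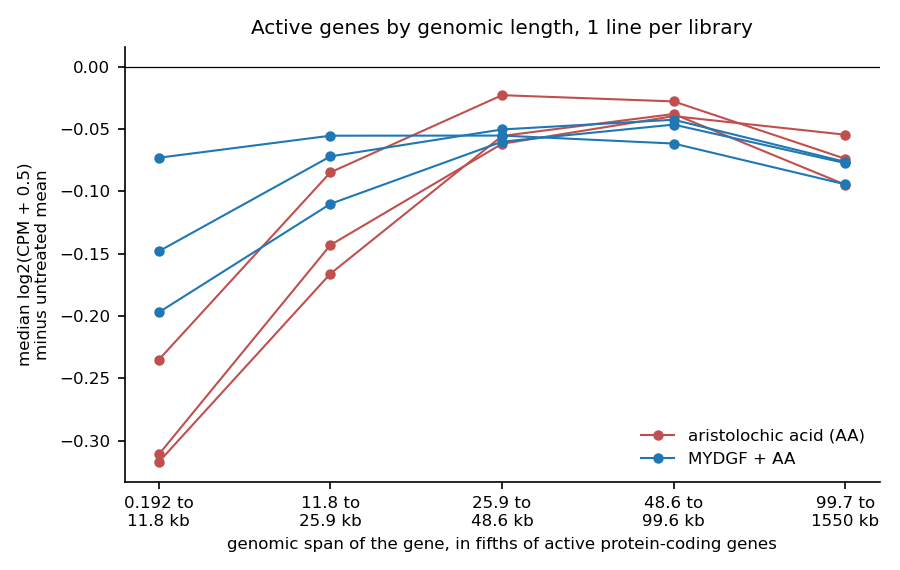
Median difference from the untreated mean, in log2(CPM + 0.5) (y axis), of active protein-coding genes in 5 classes of genomic span (x axis), 1 line per library. At up to 11.8 kb the MYDGF libraries (-0.20 to -0.07) lie above the aristolochic acid libraries (-0.32 to -0.23), and in the longer classes the lines run together.

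Promoter motifs of other factors were also counted. In the same 300-base windows the AP-1 site TGANTCA was held by 4.54% of promoters of tested genes, 3.22% of those of higher genes and 5.42% of those of lower genes. For the cAMP response element TGACGTCA the shares were 3.08, 3.82 and 2.98%, for the ATF4 site TGATGNAA 1.65, 0.928 and 2.19%, and for the E2F site TTTNNCGC 10.3, 10.2 and 8.4%. They were 1.16, 0.873 and 1.28% for the sterol response element TCACNCCAC, and 15, 17.2 and 13.6% for the antioxidant response element TGACNNNGC. All were searched on both strands, and AP-1 and antioxidant matches can share their first bases. Of the 37 DNA replication genes with a RefSeq promoter, 22 hold the E2F letters, among them 8 of the 17 that rose. Of 21 NRF2 and glutathione genes 4 hold the antioxidant letters, among them 2 of the 11 that rose. The ATF4 letters are held by 6 of 27 genes of the ATF4 stress response, among them 0 of the 8 that rose and 1 of the 4 that fell. The sterol letters are held by 1 of 21 cholesterol synthesis genes and by 0 of the 5 that rose. These shares are descriptions and were not tested.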

How the data were processed

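The table analysed holds, per the file headers, counts of reads per gene and FPKM values (counts scaled to gene length and depth by the authors) for 62703 human Ensembl genes in 9 RNA sequencing libraries. The submitters' processing notes list HISAT2, CASAVA 1.8, edgeR and SAMtools 1.3.1, and give the build as mm10, a mouse genome, although the gene IDs are human. Positions were read as GRCh38, since 99.97% of the 58279 IDs found in GENCODE 29 overlap their place there. Whether the counting used strand is not stated there. Rows without a gene symbol took 1.44 to 1.87% of the counts and stayed in the fit.

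The counts as deposited were tested with edgeR 4.0.16 in R 4.3.3 (quasi-likelihood test, TMM factors, 18267 genes passing a minimum count of 10 and total of 15), with all 9 libraries in 1 fit of 3 groups. P-values were adjusted after Benjamini and Hochberg over all genes tested, with a threshold of 0.05. CPM is the TMM-scaled count per 1e6 counts, log2 fold changes carry edgeR's SE, and n is 3 per group. FPKM served only to rank MYDGF. The fit was tested on simulated counts. The alternatives were RLE size factors, TMM from active genes, DESeq2 1.42.0, other filters, the 6 libraries alone, a replicate block and leaving out each library. Promoters come from RefSeq (GRCh38.p14) and were matched by symbol.

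The members and the 36 gene lists were chosen with earlier results of these data known. Genes were named by rule: MYDGF, the 10 largest rises and falls among active genes with groups that do not overlap, the 5 largest among near-silent genes with a mean of at least 5 CPM in 1 of both groups, the 5 largest differences in CPM each way, and up to 3 members of each list each way with the lowest p. Any other gene named, including those given as not passing the test and neighbouring genes, was chosen after its values were seen. A few genes that the rule picks are not reported here.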

Additional observations from a re-analysis of the deposited data

How the results depend on the processing

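Other scalings, DESeq2, other filters on low counts and the 6 compared libraries alone gave 1767 to 2257 for protein-coding genes higher with MYDGF (2279 as reported) and 1632 to 2384 for protein-coding genes lower with it (2060), and no gene named by the rule reversed in any setting. Leaving out 1 library at a time gave 1548 to 2709 higher and 1305 to 2523 lower genes, the lowest number of lower genes being that without MYDGF library 3. Outside the replicate block, 152 of the 190 genes named by the rule kept their call in all 15 settings and 38 lost it in at least 1. The share of lower genes among those called was 53.8 to 53.9% with RLE, with TMM from active genes and with DESeq2. With the replicate block, 6 genes were called higher and 6 lower, and MYDGF was 2.78 higher (adjusted p = 0.0158). The deviations of same-numbered libraries from their group means correlated at -0.165 (number 1) and 0.014 (number 4). Only these numbers are shared by both groups, too few to decide whether the numbers pair the samples, and the labels do not say so. The number of libraries, 3 per group, and totals near 1.2e7 counts limit what can be called among genes under 0.5 CPM.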

Other observations

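A few genes of low level in untreated cells, between 0.5 and 5 CPM and chosen after their values were seen, differed clearly between the groups. MYB, which encodes a transcription factor of blood progenitors, stood at 0.81, 0.927 and 1.20 CPM with the toxin alone and at 7.89, 7.81 and 7.56 CPM with MYDGF (log2 change 2.98, SE 0.33, edgeR adjusted p = 0.000879). Untreated libraries held 0.168 to 0.908 CPM, so MYB was higher with MYDGF than in either other group. IRX5, a homeobox gene, stood at 0.243, 0.464 and 0.368 CPM and at 2.76, 3.28 and 2.26 CPM in the same order, a log2 change of 2.91. EPHB6, an ephrin receptor gene, was listed at 0 in all 3 aristolochic acid libraries and at 0.842 to 1.09 CPM with MYDGF.

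Some protein-coding genes were high in 1 library of a group and nearly absent in another. Within at least 1 group, 59 tested genes had a highest level of at least 20 CPM that was at least 5 times the lowest level plus 0.5 CPM. Of these, 29 did so with aristolochic acid, 22 with MYDGF and 25 in untreated cells, and 56 of the 59 were not called in the comparison. TXNDC5, a protein of the endoplasmic reticulum, stood at 397.5, 49.65 and 402 CPM in MYDGF libraries 1, 3 and 4, while the overlapping BLOC1S5-TXNDC5 stood at 318 CPM in library 3 and at 0 in libraries 1 and 4. The transcription factor gene JUN stood at 281, 22.7 and 303 CPM with the toxin alone, at 196, 2.03 and 8.98 CPM with MYDGF and at 2.14, 29.1 and 30.6 CPM in untreated cells. IER3, an NF-kB target, stood at 61.5 to 68.9 CPM with the toxin alone and at 49.2, 5.93 and 5.37 CPM with MYDGF. MED29 and RBM12, which were called lower, are of this kind, as is the read-through gene RPS10-NUDT3, which was called higher. The cause was not tested.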
